A study of Mus musculus with 6 samples.

Results

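The genes described here encode the proteins of the mitochondrial ribosome. They were taken as every row of the deposited table whose gene symbol begins with Mrpl or Mrps followed by a digit, which gave 69 genes of 23930 in the table, 43 named for the large subunit (Mrpl) and 26 for the small subunit (Mrps). All 69 had a mean of at least 1 RPM (reads scaled to a common library total) and so entered the test. The RNA was from humerus shafts of E16.5 mouse embryos (E for embryonic day), in 3 libraries from controls of genotype Stat3C/+ and 3 from embryos of genotype Prrx1Cre; Stat3C/C. The controls, which the labels call wild type, carry 1 conditional Stat3 allele and no driver, while the knockouts carry the conditional allele on both chromosomes together with Prrx1Cre, a Cre driver active in limb bud mesenchyme. Muscle fibres, blood cells and endothelium of the limb do not arise from the cells in which this driver is active, and are not its targets. Each gene was read at 1 short amplified target (AmpliSeq), so a value reports that target, and levels of different genes also carry the yield of their amplicons.

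Mitochondria translate the few proteins encoded by their own genome, all of them subunits of the respiratory chain and ATP synthase, on a ribosome of their own. Its RNAs come from mitochondrial DNA, whereas all of its proteins are encoded in the nucleus, made in the cytosol and imported. Some of these proteins descend from those of bacterial ribosomes (unified names beginning with u or b, such as uL30m), and others have no bacterial counterpart at their place in the ribosome (names beginning with m, such as mL51). The large subunit joins amino acids and holds the exit tunnel for the new chain, and the small subunit holds the messenger RNA and the decoding site. Loss of single members causes respiratory chain disease in humans, with MRPL3, MRPL44, MRPS16 and MRPS22 among the genes involved.

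Promoter sequence helps to place these genes, because nuclear respiratory factor 1 (NRF1), ETS factors such as GABPA, and YY1 are known to bind start sites of many nuclear genes for mitochondrial proteins. RefSeq promoters (GRCm38.p6) matched 61 of the 69 genes with 67 start sites, and the 250 bases before each start were searched on both strands. The NRF1 motif (GCGC, any base, T and again GCGC) was found in 9 of the 67 (13.4%, against 3.74% of all 32851 promoters in the table), 8 of them before large-subunit genes (42 start sites) and 1 before a small-subunit gene (25 start sites). The ETS motif ACCGGAAG was found in 4 (5.97% against 1.72%) and the YY1 motif AAGATGGCG in 2 (2.99% against 0.606%). These are matches of letters and not bound sites, and the set of all promoters includes many that are inactive in bone. The sequences shown are upstream stretches of 4 members picked with the results below known, cut where an annotated exon of any gene begins, with NRF1 matches in capitals. Mrpl51 and Mrpl21 have no such stretch, because an annotated exon reaches their start site. Mrps17 and Mrpl30 had the lowest fold changes, Mrpl41 was among the highest, and Mrpl45 holds NRF1 matches and fell just short of the threshold of the test. The Mrps17 stretch is chr5:129715247-129715496 (plus strand), that of Mrpl30 chr1:37890412-37890476 (plus strand), that of Mrpl41 chr2:24975099-24975348 (minus strand) and that of Mrpl45 chr11:97315466-97315715 (plus strand), all written 5′ to 3′ in the direction of the gene.
Mrps17: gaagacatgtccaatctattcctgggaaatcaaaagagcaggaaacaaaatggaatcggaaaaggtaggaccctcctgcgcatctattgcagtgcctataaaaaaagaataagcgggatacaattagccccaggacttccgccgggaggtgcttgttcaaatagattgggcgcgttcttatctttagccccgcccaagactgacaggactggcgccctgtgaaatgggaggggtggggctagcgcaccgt
Mrpl30: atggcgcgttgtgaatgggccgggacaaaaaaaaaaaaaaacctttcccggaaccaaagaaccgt
Mrpl41: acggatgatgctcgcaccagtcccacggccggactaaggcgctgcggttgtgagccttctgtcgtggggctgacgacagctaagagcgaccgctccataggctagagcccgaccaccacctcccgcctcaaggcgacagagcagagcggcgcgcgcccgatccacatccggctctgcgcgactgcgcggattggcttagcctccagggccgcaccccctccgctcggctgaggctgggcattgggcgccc
Mrpl45: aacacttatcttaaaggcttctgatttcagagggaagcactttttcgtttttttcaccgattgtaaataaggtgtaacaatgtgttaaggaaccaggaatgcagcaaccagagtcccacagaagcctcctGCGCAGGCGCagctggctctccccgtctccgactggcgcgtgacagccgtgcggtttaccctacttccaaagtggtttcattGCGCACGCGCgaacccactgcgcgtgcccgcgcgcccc
Only the Mrpl45 stretch, shown partly for this reason, holds NRF1 matches, and there are 2 of them. The stretch of Mrpl30 is short because another gene, Mitd1, starts 66 bases away on the other strand, and its own NRF1 match lies beyond this stretch.

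The libraries held 9126493 to 13376550 reads, and a member was read 25 to 7022 times per library. The targeted gene was read at 211, 201 and 211 RPM (controls) and 208, 201 and 170.1 RPM (knockouts), with overlapping groups (limma, adjusted p = 0.380). No source used here says where its amplicon lies relative to the deleted part, so this level checks nothing about the labels. Markers of bone, cartilage and muscle were all read. Counts of marker genes called are to be read beside 5.71% higher and 11.0% lower of all 12846 amplicons tested (limma, adjusted p under 0.05). Summed over the marker list, osteoblast genes (7 measured) ranged from 46546 to 50448 RPM in controls and 40739 to 45207 RPM in knockouts, with 5 lower and none higher, and chondrocyte genes (8) from 468 to 488 and from 366 to 401 RPM, again with 5 lower. Skeletal muscle genes (10), which mark a tissue rich in mitochondria, summed to 27295 to 30642 RPM in controls and 24919 to 26681 RPM in knockouts, with 4 lower and none higher. Macrophage and osteoclast genes (7) went from 938 to 1019.8 RPM up to 1376 to 1397 RPM, with 4 higher and 1 lower. Neutrophil genes (5) went from 88.4 to 89.9 RPM down to 37.4 to 40.8 RPM, all 5 lower. Endothelial genes (5) ranged from 609 to 656 and from 609.5 to 648 RPM, with 2 lower. Erythroid genes (3 of 5 tested) summed to 66.5 to 79.6 and 78.6 to 87.1 RPM with 1 higher. Klf1, an erythroid marker, had no read in any knockout library, but it averaged under 1 RPM over all 6 libraries and was not tested. At that level an absence of reads shows no fall. The part of these shifts in the results on the mitochondrial ribosome was not tested, and in bulk tissue fewer cells of a type and less RNA per cell cannot be told apart.

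Single genes of the mitochondrial ribosome were higher and others lower in knockout bone, and the family as a whole had no common direction. Of the 69 members, 8 were higher and 11 lower (limma, adjusted p under 0.05 over all 12846 amplicons tested) and 50 did not pass. These 19 calls were 27.5% of the members, where 16.7% of all tested amplicons were called, and by direction 11.6% of the members were higher (5.71% of all) and 15.9% lower (11.0% of all). Values of the 2 groups did not overlap for 31 members (44.9%, against 33.8% of all tested), 15 with all knockout libraries above (11.9% of all tested) and 16 below (21.9%). No member changed 2-fold. Fitted changes ran from -0.61 to 0.54 on the log2(RPM + 1) scale. This scale is used for every fold change here except those of edgeR and DESeq2, which were fitted on read counts. The median over the members was -0.02 (31 above 0 and 38 below), beside -0.06 for all amplicons tested. The median of the members turned to 0.04 with TMM, 0.04 with median-of-ratios, 0.04 with edgeR, 0.05 with DESeq2 and 0.03 with quantile scaling. That of all amplicons rose as well, to -0.00804 with TMM, -0.00245 with median-of-ratios, -0.00845 with edgeR, -0.00265 with DESeq2 and -0.00557 with quantile scaling.

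**Figure D1:**
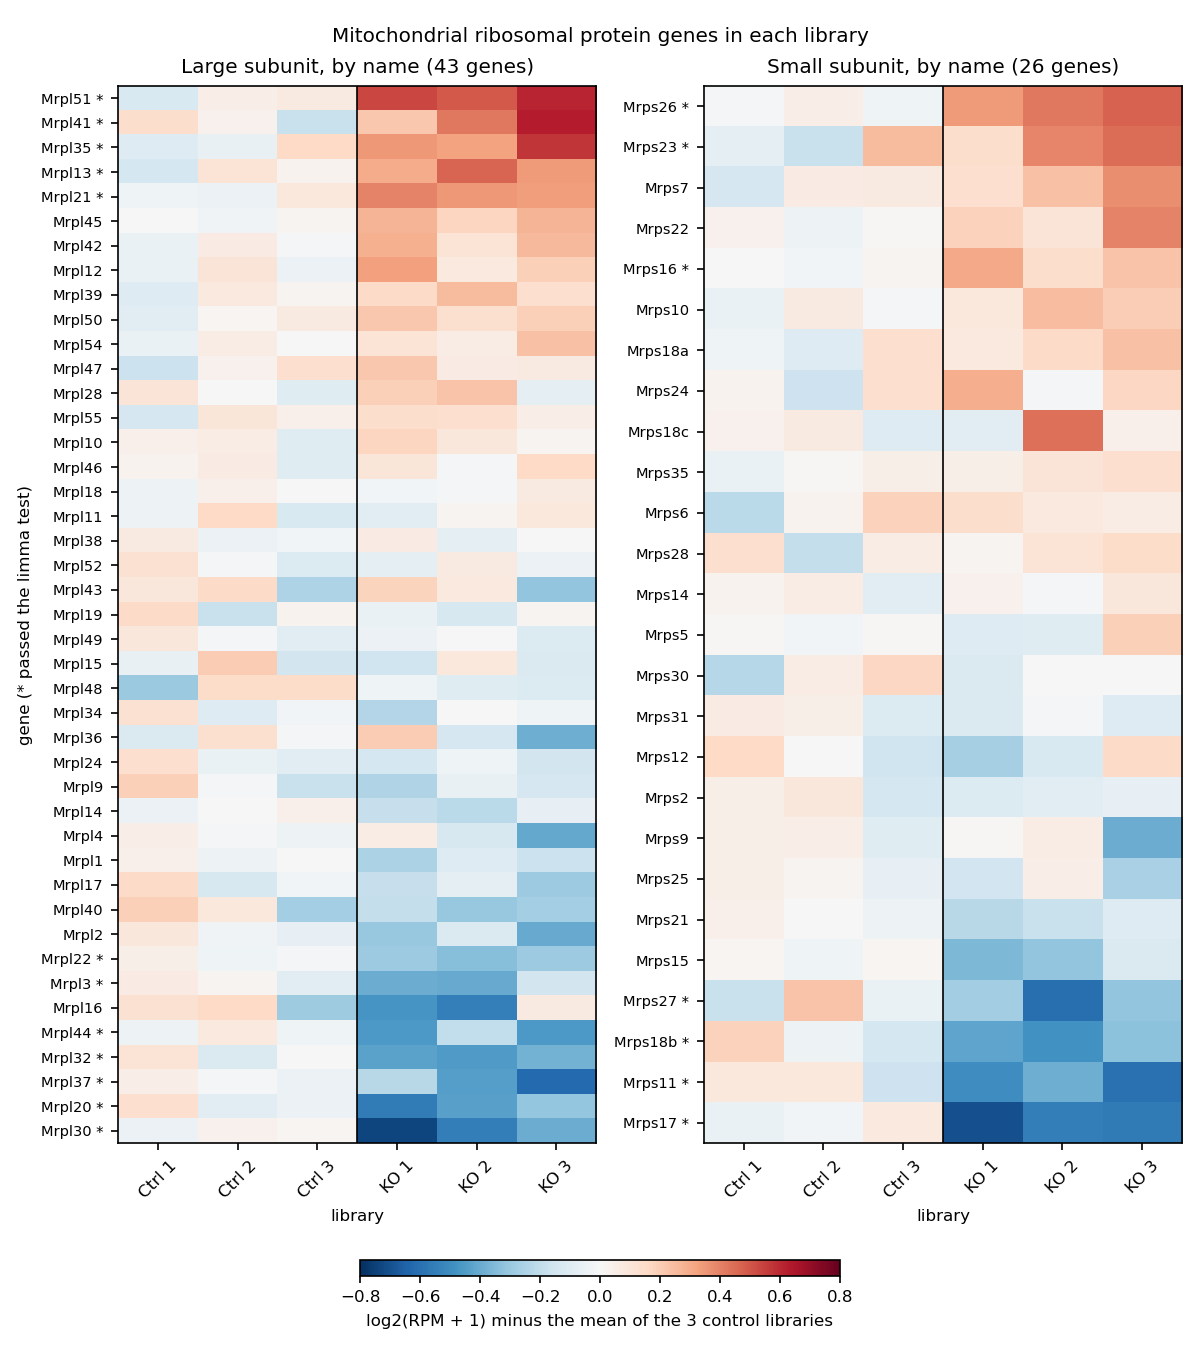
Each cell is 1 gene in 1 library, coloured by log2(RPM + 1) minus the mean of the 3 control libraries, with large-subunit genes on the left and small-subunit genes on the right, ordered by fold change. Both panels run from genes high in all knockout libraries (Mrpl51 and Mrps26 at the top) to genes low in all of them (Mrpl30 and Mrps17 at the bottom).

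How many members passed in each direction moved with the scaling, as it did for all amplicons. With TMM factors the members had 13 higher and 8 lower (background 8.13% and 7.22%, 15.4% in either direction). Median-of-ratios factors gave 14 higher and 7 lower (background 8.40% and 6.86%, 15.3% in either direction) and quantile normalization gave 10 higher and 6 lower (background 7.62% and 6.83%, 14.4% in either direction). On the recovered reads, edgeR called 12 higher and 8 lower (background 8.19% and 7.18%, 15.4% in either direction) and DESeq2 14 higher and 7 lower (background 7.77% and 6.03%, 13.8% in either direction). Under these 5 all 8 higher members passed again, joined in each by Mrpl45 and Mrps22. Without a filter on low values there were 4 higher and 8 lower (background 2.55% and 4.24%, 6.79% in either direction), among 68 members at a mean of 5 RPM or more 9 higher and 11 lower (background 6.36% and 13.2%, 19.6% in either direction), and without a variance trend 3 higher and 5 lower (background 2.81% and 4.94%, 7.75% in either direction). Each share of members called was above that of all amplicons under the same rule.

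The large and the small subunit had similar shares of calls. In the large subunit 5 of 43 members were higher and 7 lower (27.9% called), and in the small subunit 3 of 26 were higher and 4 lower (26.9% called). The median fold change was -0.05 for the large and 0.02 for the small subunit, and no test was made of these medians. With TMM factors the medians were 0.00131 and 0.07, beside -0.00804 for all amplicons. Summed over the members, the large subunit went from 3516 ± 58.8 RPM in controls to 3744 ± 38.2 RPM in knockouts (SD, n = 3 each) and the small subunit from 1342 ± 5.83 to 1368 ± 38.3 RPM. A single gene carried most of the difference in the total. Over all members the sums were 4858 ± 54.8 and 5112 ± 73.1 RPM, and without Mrpl51 they were 4447 ± 52.9 and 4513 ± 47.6 RPM.

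Names and places do not match for every member. Mrps30 (mL65) and Mrps18a (mL66) are named for the small subunit but sit in the large one. Counted by place, the large subunit had 5 of 45 members higher and 7 lower with a median of -0.04, and the small subunit 3 of 24 higher and 4 lower with a median of 0.02. Members with a unified name in u or b had 4 of 43 higher and 7 lower (median -0.08), and members with a name in m had 4 of 26 higher and 4 lower (median 0.04). The second class is one of names, and it counts Mrps18a and Mrps18b, which descend from the bacterial S18 gene.

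The greatest rise was in Mrpl51 (mL51), a large-subunit protein without a bacterial homolog and the member with the highest read level. Its amplicon (AMPLMrpl51_1_1.10732, gene on chromosome 6 from 125191801 to 125196269, GRCm38) was read at 376, 426 and 431 RPM in control replicates 1 to 3 and at 595, 576 and 627 RPM in knockout replicates 1 to 3. Every knockout library lay above every control library. Group levels of 411 ± 30.2 and 599 ± 25.5 RPM (SD, n = 3 each) gave 0.54 ± 0.07 (SE) with limma, at an adjusted p of 3.51e-05. A two-sided exact permutation over the 6 libraries gave p = 0.1, the smallest that 3 against 3 can give, for this and each of the other members whose groups did not overlap. A processed pseudogene, Gm14017, matches 387 bases of an Mrpl51 transcript at 98.5% identity, so reads of both may be counted together.

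Mrpl21 (bL21m, chromosome 19, 3282901 to 3292837), a large-subunit protein of bacterial descent, was the other member called as higher in every alternative analysis. Controls were at 54.5, 54.2 and 59.3 RPM and knockouts at 73.9, 71.3 and 70.9 RPM. The lowest knockout library was clear of the highest control, and limma gave 0.36 ± 0.09 (SE, adjusted p = 0.00863). Another 3 large-subunit genes rose. Mrpl41 (mL41, chromosome 2, 24974117 to 24975098) stood at 40.8, 37.8 and 32.5 RPM (controls) and 42.9, 49.7 and 57.6 RPM (knockouts) (0.42, adjusted p = 0.0145). Its groups were separate only by a narrow margin, between control replicate 1 and knockout replicate 1. Mrpl35 (bL35m, chromosome 6, 71812997 to 71826969) was read at 78.2, 80.8 and 94.2 RPM and then at 107, 106 and 126 RPM (0.41, adjusted p = 0.00448). Mrpl13 (uL13m, chromosome 15, 55534094 to 55557748) went from 32.6, 38.9 and 36.6 RPM to 44.3, 49.96 and 45.8 RPM (0.37, adjusted p = 0.0174). Both had all knockout libraries above all controls.

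In the small subunit 3 genes rose, all nearer to the threshold. Mrps26 (mS26, chromosome 2, 130563742 to 130568695), one of the least read members, had 8.16, 8.60 and 8.05 RPM (controls) and 10.8, 11.4 and 11.9 RPM (knockouts) (0.41, adjusted p = 0.0464). Mrps23 (mS23, chromosome 11, 88204388 to 88211507) had 72.2, 67.2 and 90.8 RPM and then 84.2, 100.04 and 104 RPM (0.33, adjusted p = 0.0374). Its control replicate 3 lay above knockout replicate 1, so it is the only called member whose groups overlap. Mrps16 (bS16m, chromosome 14, 20389304 to 20393634) had 175, 173 and 178 RPM and then 217, 194 and 206 RPM (0.22, adjusted p = 0.0471), without overlap. None of the 3 passed without a filter on low values, without control replicate 1 or 2, or without knockout replicate 2 or 3. Of the 18 alternative analyses, Mrps16 was called in 9, Mrps26 in 11 and Mrps23 in 12.

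**Figure D2:**
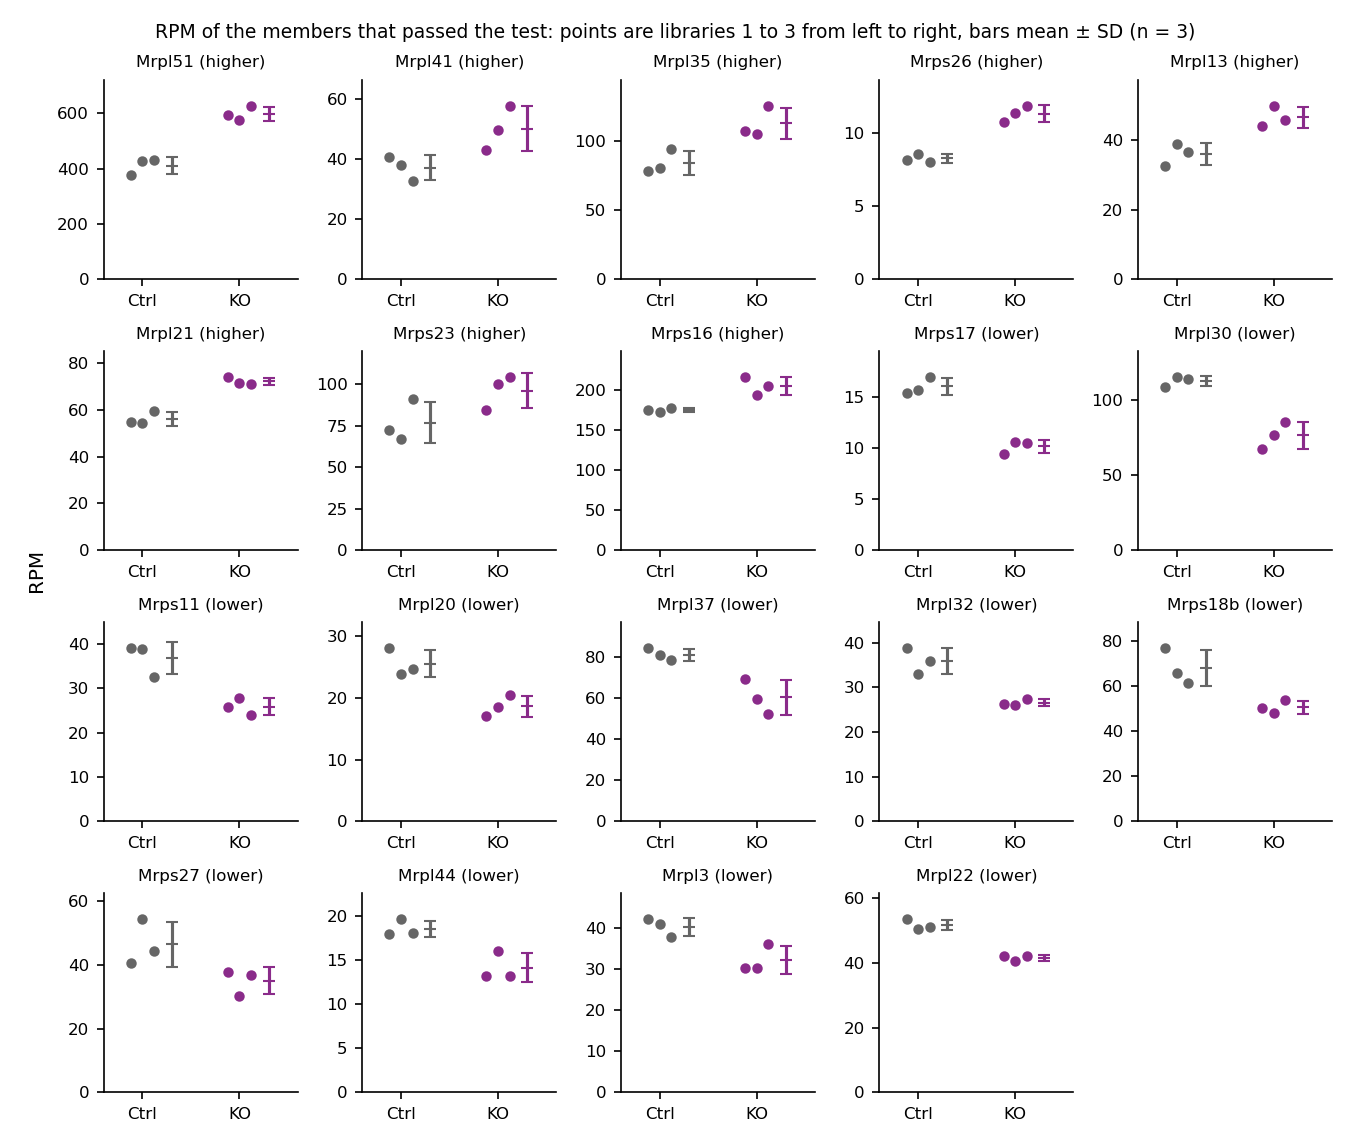
Each panel is a member that passed the test, with RPM on an axis from 0, points for libraries 1 to 3 of each group and bars for mean ± SD (n = 3). The first 8 panels are higher and the other 11 lower in the knockout, and the groups are separate in every panel but that of Mrps23.

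The greatest fall was in Mrps17 (AMPLMrps17_3_1.13265, uS17m, chromosome 5, 129715497 to 129722556), a small-subunit protein of bacterial descent that binds ribosomal RNA. Controls were at 15.5, 15.8 and 17.001 RPM and knockouts at 9.48, 10.6 and 10.5 RPM, with every knockout library below every control. Group levels of 16.1 ± 0.813 and 10.2 ± 0.633 RPM (SD, n = 3 each) gave -0.61 ± 0.13 (SE, limma adjusted p = 0.00309). Mrps11 (uS11m, chromosome 7, 78783119 to 78792989) was at 39.0, 38.9 and 32.5 RPM (controls) and 25.7, 27.7 and 23.9 RPM (knockouts), at -0.50 ± 0.11 (adjusted p = 0.00414), again without overlap. Both were called as lower in every alternative analysis.

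The large-subunit gene with the greatest fall was Mrpl30 (AMPLMrpl30_5_1.17379, uL30m, chromosome 1, 37890477 to 37898535). Its controls were at 109, 116 and 114 RPM and its knockouts at 67.7, 76.6 and 85.7 RPM. The highest knockout library was well below the lowest control. Group levels of 113 ± 3.40 and 76.6 ± 8.995 RPM (SD, n = 3 each) gave -0.56 ± 0.09 (SE, limma adjusted p = 0.000231), and this member too passed under every alternative. A further 6 large-subunit genes fell, none with overlapping groups. Mrpl37 (mL37, chromosome 4, 107055874 to 107066868), whose protein is related to that of Mrps30, had 84.1, 80.6 and 78.4 RPM (controls) and 69.4, 59.3 and 52.2 RPM (knockouts) (-0.43, adjusted p = 0.00527). Mrpl20 (bL20m, chromosome 4, 155802878 to 155809975) went from 28.1, 23.9 and 24.7 RPM to 17.02, 18.6 and 20.4 RPM (-0.43, adjusted p = 0.0160). Mrpl32 (bL32m, chromosome 13, 14608184 to 14613165), a protein trimmed by the m-AAA protease before it joins the ribosome, went from 38.7, 33.0 and 36.0 RPM to 26.3, 25.97 and 27.4 RPM (-0.42, adjusted p = 0.00972). These 3 falls were of about the same size at unequal levels. Mrpl37 and Mrpl32 were called in 17 of the 18 alternative analyses and Mrpl20 in 14. The call of Mrpl20 was lost under quantile normalization and without control replicate 1, knockout replicate 1 or knockout replicate 2.

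The other large-subunit members that fell did so by less, and their calls held in fewer of the 18 alternatives (Mrpl44 in 5, Mrpl3 in 7 and Mrpl22 in 9). Mrpl44 (mL44, chromosome 1, 79776018 to 79781445), a member of the disease genes named above, had 17.95, 19.6 and 18.1 RPM (controls) and 13.2, 16.0 and 13.2 RPM (knockouts) (-0.37, adjusted p = 0.0477). Mrpl3 (uL3m, chromosome 9, 105053239 to 105079888) went from 42.2, 41.0 and 37.8 RPM to 30.4, 30.2 and 36.3 RPM (-0.31, adjusted p = 0.0464). Mrpl22 (uL22m, chromosome 11, 58171661 to 58179565), which lines the exit tunnel, went from 53.3, 50.3 and 51.0 RPM to 42.0, 40.4 and 41.9 RPM (-0.31, adjusted p = 0.0280). The groups of these 3 genes did not overlap, yet none was called under TMM, median-of-ratios, quantile, edgeR or DESeq2 scaling. In the small subunit, the other falls were in Mrps18b and Mrps27. Mrps27 (mS27, chromosome 13, 99344786 to 99415562), an RNA-binding protein with pentatricopeptide repeats, had 40.7, 54.3 and 44.5 RPM (controls) and 37.9, 30.1 and 36.9 RPM (knockouts) (-0.40, adjusted p = 0.0224). Its control libraries were widely spread, and the call held in 11 of the 18 alternatives. It was lost under median-of-ratios, quantile and DESeq2 scaling, without a filter on low values and without a variance trend. Leaving out control replicate 2 or knockout replicate 2 lost it too.

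The Mrps18 genes are 3 related copies of the bacterial S18 gene whose products sit at different places. Mrps18b (mS40, chromosome 17, 35910379 to 35916389) was at 77.0, 65.9 and 61.4 RPM (controls) and 50.4, 48.1 and 53.8 RPM (knockouts), without overlap, at -0.41 ± 0.10 (SE, limma adjusted p = 0.00683). Mrps18a (mL66, chromosome 17, 46110986 to 46128910) had 18.6, 17.7 and 21.1 RPM and then 20.2, 21.4 and 22.7 RPM (0.16, adjusted p = 0.399). Mrps18c (bS18m, chromosome 5, 100798627 to 100804471) had 13.7, 14.1 and 12.4 RPM and then 12.5, 18.5 and 13.8 RPM (0.13, adjusted p = 0.584). The groups of these 2 overlapped and neither passed. A processed pseudogene, Gm13552, matches 417 bases of Mrps18b at 99.8% identity. In all, 13 members have such a copy (at least 95% identity over at least 200 bases), 7 of the 19 called members among them (Mrpl21, Mrpl22, Mrpl41, Mrpl51, Mrps16, Mrps18b and Mrps26), and whether reads were shared was not tested. Mrps30 (mL65, chromosome 13, 118378381 to 118387252) had 40.9, 50.2 and 54.1 RPM and then 44.2, 47.9 and 47.9 RPM, with overlapping groups (-0.04, adjusted p = 0.830), and its sign depended on the scaling.

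Other members lay outside the threshold, and Mrpl45 and Mrpl42, the nearest to it, were chosen after their values were seen. Mrpl45 (mL45, chromosome 11, 97315716 to 97329920), which anchors the exit tunnel to the inner membrane, was at 88.3, 86.3 and 89.6 RPM (controls) and 107, 99.2 and 106 RPM (knockouts) (0.24, adjusted p = 0.0518). Mrpl42 (mL42, chromosome 10, 95480805 to 95501940) had 184, 200.1 and 190.2 RPM and then 233, 207 and 229 RPM (0.22, adjusted p = 0.0575). Mrps22 (mS22, chromosome 9, 98588730 to 98601660), a human disease gene, had 61.8, 58.6 and 60.8 RPM and then 68.8, 65.0 and 79.9 RPM (0.23, adjusted p = 0.0992). The groups of all 3 were separate, and with TMM factors all 3 passed as higher. Mrps7 (uS7m, chromosome 11, 115603925 to 115608036) was the least read member, with 2.15, 2.62 and 2.63 RPM in controls, 2.79, 3.07 and 3.48 RPM in knockouts and separate groups as well (0.25, adjusted p = 0.407).

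The large-subunit members at 3 places in the ribosome were also counted, in groups so small that at 16.7% called, the share of all amplicons, about 1 call or none would fall in each. None of the 4 proteins of the stalks that touch translation factors and transfer RNA (Mrpl1, Mrpl10, Mrpl11 and Mrpl12) passed, with fold changes from -0.18 to 0.20, though Mrpl12 was called as higher under TMM, median-of-ratios, edgeR and DESeq2. None of the 6 proteins of the central protuberance, which faces the small subunit (Mrpl18, Mrpl38, Mrpl40, Mrpl46, Mrpl48 and Mrpl55), passed either, and all 6 had overlapping groups, with fold changes from -0.25 to 0.11. Of these, Mrpl40 was called as lower when control replicate 3 was left out. Of 5 proteins around the exit tunnel (Mrpl17, Mrpl22, Mrpl24, Mrpl45 and Mrpl47) only Mrpl22 was called, with a range of -0.31 to 0.24. A result that misses the threshold does not show that levels were alike.

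The members were also counted by read level, with the mean over all 6 libraries as the level. Of the 12 members with a mean of at least 100 RPM, 2 were higher and none lower (median 0.16), or 16.7% called. Of the 1816 amplicons at that level 27.1% were called (13.7% higher, 13.4% lower, median 0.000559). A count of 2 of 12 is too small to set apart from that share. Of the 57 under 100 RPM, 6 were higher and 11 lower (median -0.07), beside 4.40% higher and 10.6% lower of all amplicons under 100 RPM (median -0.07). A change moves the mean that sets the class: Mrpl30 was above 100 RPM in all 3 control libraries and is counted under it because of its knockout values. The difference between the 2 classes was not tested. Across the 69 genes the rank correlation of fold change with mean RPM was 0.352, beside 0.0554 over all amplicons, and that with transcript length was -0.00186, beside -0.120 for the 11969 amplicons with a length. These are descriptions across genes that share libraries, and the yield of each amplicon is part of its level.

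**Figure D3:**
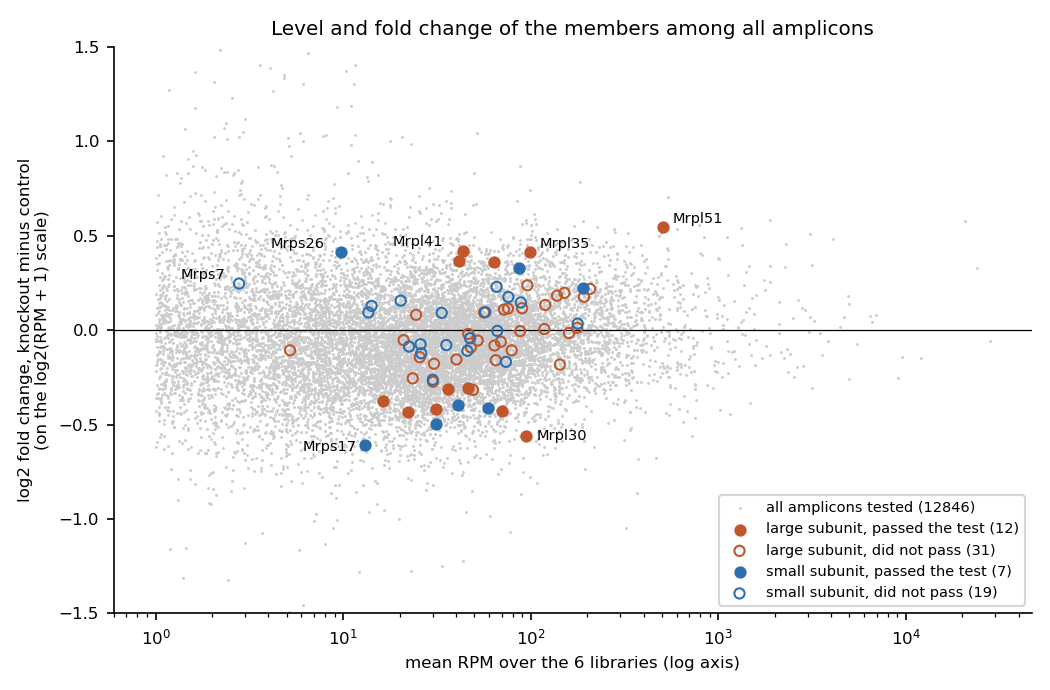
Points are amplicons, with mean RPM over the 6 libraries on a log axis and the fold change (knockout minus control, log2(RPM + 1) scale) on the other, members in colour and filled where they passed, and 32 other amplicons outside the plotted range. Members spread on both sides of 0, and Mrpl51 lies highest among them in level and change.

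Replicate spread was small beside the greatest changes. The median coefficient of variation of a member over replicates was 6.90% in controls and 6.06% in knockouts. Control replicate 1 held the highest of the 6 values for 21 members and the lowest for 17, more than any other library on both counts. Leaving out control replicate 1 gave 4 members higher and 5 lower, where 481 and 749 of all 12846 amplicons were called. With all libraries the whole table had 733 higher and 1409 lower. Leaving out knockout replicate 2 gave 3 and 7 (466 and 855 of all), and control replicate 2 gave 5 and 7 (442 and 729). Without knockout replicate 3 there were 4 and 11 (623 and 1087), and without control replicate 3 there were 5 and 12 (705 and 1324). Without knockout replicate 1 there were 6 and 8 (604 and 1263). Calls over the whole table thus fell in each case, and the losses are not particular to the members.

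The genes are scattered over the genome. The 69 genes lie on 17 chromosomes, and 22 have another protein-coding gene that starts within 500 bases on the opposite strand. In 19 such pairs, called head-to-head here, both genes were measured. Of 10 called members in these pairs, 2 had a partner that was called too, 1 in the same direction and 1 in the opposite direction. With 16.7% of all amplicons called, a count of 2 of 10 is near that background and is no result about such pairs.

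The pair called in opposite directions was Mrpl51 and Ncapd2, a condensin subunit gene whose start lies 100 bases away. Ncapd2 was at 121, 101 and 109 RPM (controls) and 103, 79.0 and 84.4 RPM (knockouts), at -0.32 ± 0.10 (SE, limma adjusted p = 0.0310), while Mrpl51 rose. The groups of Ncapd2 overlapped. Mrps18b and Ppp1r10, a regulatory subunit gene of protein phosphatase 1 that starts 45 bases away, were both lower. Ppp1r10 had 69.1, 66.6 and 40.3 RPM and then 42.3, 42.1 and 33.7 RPM, at -0.53 ± 0.15 (adjusted p = 0.0151), with control replicate 3 among the knockouts. Mrps11 and Mrpl46 are 2 members whose 5′ ends overlap, with start sites 412 bases apart, and only Mrps11 was called. Mrpl46 (mL46, chromosome 7, 78775236 to 78783531) stood at 24.2, 24.9 and 22.2 RPM (controls) and 25.5, 23.6 and 26.6 RPM (knockouts) (0.08, adjusted p = 0.669). No source used here says whether the amplicon of either gene lies in the overlap or whether the counting used strand, and there reads of both could not be told apart. Other called members share identical stretches with a gene at the same locus. They are Mrpl13 with Mtbp (330 bases), Mrpl21 with Ighmbp2 (117), Mrpl44 with Wdfy1 (126), Mrps18b with Gm16279 (579) and Mrps27 with 6430562O15Rik (173). Whether reads were shared there was not tested. Mitd1, which starts beside Mrpl30, did not pass (-0.18, adjusted p = 0.409). No test was made of the difference within a pair.

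**Figure D4:**
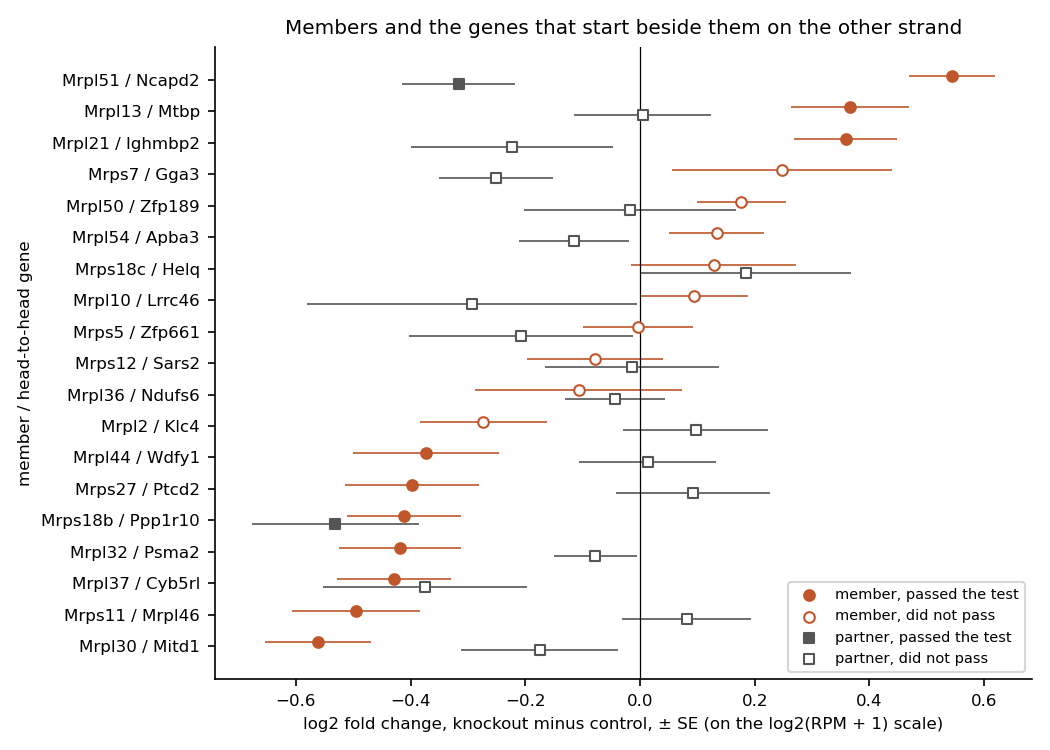
Each row is a pair of genes that start within 500 bases on opposite strands, with the log2 fold change ± SE of the member (circle) and of its partner (square), filled where it passed the test. Of the partners of called members, Ncapd2 and Ppp1r10 passed, Ncapd2 on the other side of 0 from Mrpl51 and Ppp1r10 on the same side as Mrps18b.

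Other proteins of the same machinery were examined from lists, to be read against the background of 5.71% higher, 11.0% lower and 16.7% called in all. Among 5 further proteins of the mitochondrial ribosome that carry other names (Dap3, Ptcd3, Chchd1, Aurkaip1 and Ict1), 1 was lower. This was Aurkaip1 (mS38), at 6.70, 6.13 and 4.52 RPM (controls) and 4.40, 2.96 and 3.37 RPM (knockouts) (-0.57, adjusted p = 0.0409). Of 11 translation factors 2 fell and none rose, a share of 18.2% that is near the background. Mtif2, the initiation factor that brings the first transfer RNA, went from 16.4 ± 2.19 to 11.1 ± 0.505 RPM (-0.52, adjusted p = 0.0116). Oxa1l, which inserts new chains into the inner membrane, went from 155 ± 9.32 to 126 ± 11.6 RPM (-0.29, adjusted p = 0.0210). None of 16 tested aminoacyl-tRNA synthetases passed (median -0.03, range -0.37 to 0.28).

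Assembly and RNA factors had single calls as well, in lists too short to set apart from that background. Of 21 tested genes for ribosome assembly and ribosomal RNA modification 1 rose and 1 fell. Ngrn went from 39.5 ± 2.98 to 48.5 ± 1.601 RPM (0.29, adjusted p = 0.0459) and Mettl17, an assembly factor of the small subunit, from 14.0 ± 0.501 to 9.92 ± 1.67 RPM (-0.47, adjusted p = 0.0281). Of 10 genes for mitochondrial transcription and RNA handling 2 rose. They were Lrpprc, from 118 ± 7.55 to 159 ± 22.4 RPM (0.42, adjusted p = 0.00377), and Slirp, from 65.6 ± 5.28 to 80.7 ± 5.90 RPM (0.30, adjusted p = 0.0319), which encode the partners of a complex that protects mitochondrial messenger RNAs. Each ± here is the SD over 3 libraries. None of 9 regulators of nuclear genes for mitochondria passed, among them Nrf1 (-0.29, adjusted p = 0.0768), Gabpa (0.02, adjusted p = 0.917), Yy1 (0.03, adjusted p = 0.850) and Ppargc1a (0.31, adjusted p = 0.0975).

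**Figure D5:**
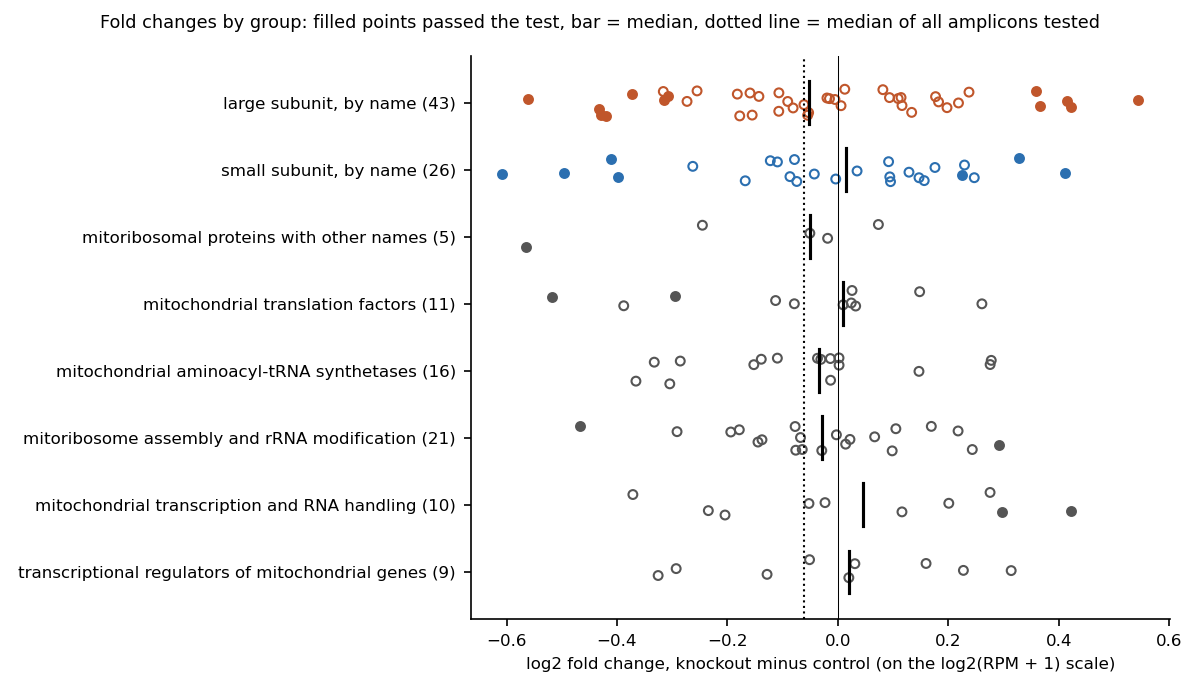
Each point is a tested gene placed by its log2 fold change, filled where it passed the test, in rows for both subunits and for lists of related genes, with a bar at each row's median and a line at the median of all amplicons (-0.06). Every row spans both sides of 0.

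Nuclear-encoded respiratory chain subunits, the partners of the proteins this ribosome makes, had 10 of 69 tested genes higher and 9 lower (median 0.01). That is 27.5% called, the same share as in the mitochondrial ribosome, where 16.7% of all amplicons were called. These genes were read at a median level of 272 RPM, beside 24.4 RPM for all amplicons tested. Of all amplicons at 100 RPM or more 27.1% were called, so the share is near that of amplicons at a like level. The list of cytosolic ribosomal proteins matched 22 genes, of which 20 were tested, with 1 higher and 1 lower (median 0.05). These counts are too small to set apart from the 16.7% of all amplicons, and they describe only the genes matched. No test was made of the difference between these sets and the mitochondrial ribosome.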

How the data were processed

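Gene expression was measured in 3 control and 3 Stat3 knockout libraries, grouped by title. Per the labels' protocols, Trizol RNA was made into cDNA with a SuperScript VILO kit and into Ion AmpliSeq mouse transcriptome libraries on an Ion Chef. No source used here gives the aligner, the counter or the build. Values were deposited by the authors as RPM for 23930 amplicons. At least 99.97% of the values above 0 in each library were whole reads within 0.1 read, and these reads were used for count tests.

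The 12846 amplicons averaging 1 RPM or more were compared on log2(RPM + 1) with limma 3.58.1 (R 4.3.3, trend), Benjamini-Hochberg adjusted over all of them, at 0.05. Fold changes of low genes are understated on this scale. The labels do not say whether replicates were separate embryos, so p-values measure the spread between these libraries, which may be partly technical. Alternatives were other pseudocounts (0.1 and 10 RPM), filters, scalings and variance models, a replicate block, edgeR 4.0.16, DESeq2 1.42.0 and leaving out each library. The fit was tested on simulated data. Members and lists were chosen with earlier results of these data known. Genes named are the called members, the 4 highest and 4 lowest per subunit, the Mrps18 genes and Mrps30, and called genes of the lists, of which cell type, respiratory chain and cytosolic ribosome lists are given as counts. The near-threshold Mrpl45 and Mrpl42, head-to-head partners and the groups by place, level and position were chosen after values were seen. Positions are from GENCODE M21 (GRCm38), by symbol. Mrps36 was not analysed here.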

Additional observations from a re-analysis of the deposited data

How the results depend on the processing

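Counts of members called and subunit medians were refitted under 18 alternatives. Higher members numbered 13 with TMM factors, 14 with median-of-ratios factors, 14 with DESeq2, 4 with no filter on low values and 3 without a variance trend. Lower members numbered 7 with median-of-ratios factors, 6 with quantile normalization, 7 with DESeq2 and 5 without a variance trend. Leaving out 1 library at a time gave 3 to 6 higher and 5 to 12 lower members. Over all amplicons the same fits gave 442 to 705 higher and 729 to 1324 lower, beside 733 and 1409 with all libraries. The median of the large subunit was 0.00131 with TMM, 0.00690 with median-of-ratios, 0.00664 with quantile normalization, 1.76e-05 with edgeR and 0.00590 with DESeq2, and -0.0699 to -0.00781 with 1 library left out. That of the small subunit was 0.0717 with TMM, 0.0775 with median-of-ratios, 0.0754 with edgeR and 0.0816 with DESeq2, and -0.00864 to 0.0411 with 1 library left out. The difference of the medians ran from -0.0914 to -0.00923. The cause was not tested. Mrps17, Mrps11, Mrpl30, Mrpl21 and Mrpl51 were called in all 18 alternatives. Over the called members 263 refitted values stayed past the threshold and 79 did not, with no change of sign. Mrps30 turned positive with TMM (0.0130), median-of-ratios (0.0187), quantile normalization (0.0315), edgeR (0.000699) and DESeq2 (0.00743), and ran from -0.157 to 0.0413 with 1 library left out, above 0 without control replicate 3. Mrps18c ran from -0.0257 to 0.238 with 1 library left out, below 0 without knockout replicate 2. Same-numbered libraries deviated from their group means with correlations of 0.0126, -0.0193 and 0.107, so the numbers were not taken as pairs. With the replicate block 9 members were higher and 11 lower, all 19 calls kept and Mrpl45 added, and 836 amplicons of the whole table were higher and 1626 lower. Depth limits Mrps7 most, at 25 reads in 1 library.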
